A study of Mus musculus with 23 samples.

Results

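The genes described here are 10 genes of MHC class I antigen presentation, *H2-K1*, *H2-D1*, *B2m*, *Tap1*, *Tap2*, *Tapbp*, *Erap1*, *Psmb8*, *Psmb9* and *Nlrc5*. They were chosen by name for their place in the pathway, by a rule that uses no measured value, though earlier results of these data were known, and they are 10 of the 24940 gene symbols in the deposited tables. All 10 passed the filters on low values, among 15722 genes in tumors and 13598 in cancer-associated fibroblasts (CAFs). RNA was measured in whole tumor fragments of 5 syngeneic models, with 3 tumors of each, and in CAFs sorted from tumors of 4 of these models, with 2 libraries of each. Every tumor was grown by injecting 500000 cells of an established mouse line under the skin of the flank of adult female C57BL/6 mice for which the labels give no further treatment. The lines were B16-F10 melanoma (called B16), EO771.LMB mammary carcinoma (EO771), LL/2 lung carcinoma (LL2), MC38 colon carcinoma and Pan02 pancreatic carcinoma. The titles of the Pan02 tumor samples read Pan01, and these tumors were assigned by their cell line label, Pan02. CAFs were cells without CD45, a marker of blood cells, and with FAP, fibroblast activation protein, sorted by flow cytometry from EO771, LL2, MC38 and Pan02 tumors. The labels do not say that the libraries of a group came from separate animals, so p-values measure the spread between these libraries only. A model here is 1 line, so that its tumors differ from the others by the line and by every cell that grew with it.

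MHC class I molecules show peptides from inside a cell to CD8 T cells. Each molecule is a heavy chain, such as the products of *H2-K1* and *H2-D1*, paired with the invariant light chain β2-microglobulin (*B2m*). The peptides are made by the proteasome, whose catalytic subunits are exchanged for those of the immunoproteasome (*Psmb8* and *Psmb9*) under interferon gamma, and are carried into the endoplasmic reticulum by the transporter of *Tap1* and *Tap2*. Tapasin (*Tapbp*) holds the empty class I molecule at the transporter, and the aminopeptidase encoded by *Erap1* trims the peptides to length. NLRC5 is the transactivator of class I genes, and loss of class I from tumor cells is a known route by which tumors escape T cells.

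In mm10, 7 of the 10 genes lie on chromosome 17, in or near the mouse MHC. The transcripts used were *H2-K1* at chr17:33996012-34000347 (minus strand), *H2-D1* at chr17:35263094-35267497, *Tap1* at chr17:34187556-34197225, *Tap2* at chr17:34204479-34216321, *Tapbp* at chr17:33919478-33929290, *Psmb8* at chr17:34198195-34201454 and *Psmb9* at chr17:34182099-34187330 (minus strand). The other 3 were *B2m* at chr2:122147687-122153082, *Erap1* at chr13:74639853-74693205 and *Nlrc5* at chr8:94472763-94527272. Values are sums over the exons of each transcript. Of the stretches of 50 bases in their annotated transcripts, 14.3% of *H2-D1* and 8.11% of *H2-K1* also occur in other genes, mostly other class I heavy chains, so part of their reads cannot be assigned to 1 gene. Exon bases shared with other genes made up 29.0% of *Tapbp*, 18.5% of *Tap2*, 14.7% of *Psmb8* and 11.5% of *Erap1*, and reads were counted on both strands, so that those of overlapping genes cannot be told apart there.

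The sequences just upstream of the heavy chain, light chain and *Tap1* genes are printed here because class I genes are known to share promoter elements for interferon-responsive factors, NF-kappaB and the factors that NLRC5 works with. They are RefSeq sequences of GRCm38.p6, written 5′ to 3′ in the direction of the gene and ending at the last base before the start of transcription. The table gives 2 starts for *H2-K1*, and that of the transcript in the deposited files was used. Capitals mark the letters searched on both strands, an interferon-stimulated response element core (GAAA, any 2 bases, GAAA), an interferon gamma activated site (TTCNNNGAA), a kappaB site (GGGA, any 4 bases, CC), an X2 core (TGACG) and a Y box (CCAAT). The stretches lie at chr17:34000348-34000527 (minus strand), chr17:35262914-35263093 (plus strand), chr2:122147507-122147686 (plus strand) and chr17:34187331-34187555 (plus strand).
H2-K1, bases -180 to -1: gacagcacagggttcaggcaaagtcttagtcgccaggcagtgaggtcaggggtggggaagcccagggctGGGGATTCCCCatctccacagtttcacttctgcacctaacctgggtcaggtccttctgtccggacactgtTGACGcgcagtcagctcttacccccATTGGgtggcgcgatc
H2-D1, bases -180 to -1: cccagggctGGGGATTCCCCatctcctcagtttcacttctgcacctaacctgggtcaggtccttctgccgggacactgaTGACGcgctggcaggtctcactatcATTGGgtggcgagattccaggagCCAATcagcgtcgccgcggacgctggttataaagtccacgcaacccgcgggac
B2m, bases -180 to -1: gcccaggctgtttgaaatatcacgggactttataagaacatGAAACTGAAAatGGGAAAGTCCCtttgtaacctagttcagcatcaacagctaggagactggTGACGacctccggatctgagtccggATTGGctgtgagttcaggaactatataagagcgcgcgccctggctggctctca
Tap1, bases -225 to -1: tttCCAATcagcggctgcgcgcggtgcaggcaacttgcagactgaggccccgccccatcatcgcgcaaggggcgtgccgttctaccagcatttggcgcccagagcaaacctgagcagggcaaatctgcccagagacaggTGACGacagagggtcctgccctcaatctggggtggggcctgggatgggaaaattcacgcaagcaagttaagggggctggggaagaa

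The upstream sequences of *H2-K1*, *H2-D1* and *B2m* each held a kappaB match followed by an X2 core and, after exactly 20 further bases, a Y box on the other strand. This spacing was chosen after it was seen, and 31 of the 32851 promoters in the table (0.0944%) held it, with these 3 genes among them. An interferon-stimulated response element core occurred in *B2m*, at -139 to -130, and across the start of *Erap1*, at -4 to 6, and an interferon gamma activated site in *Psmb8*, at -97 to -89. Among the 8 of 10 genes with a RefSeq promoter of 300 bases, 2 held the response element core, 1 the activated site, 3 the kappaB site, 5 the X2 core and 6 the Y box, against 3.44%, 8.30%, 20.7%, 20.8% and 37.4% of all promoters. The printed *Tap1* stretch is also the upstream sequence of *Psmb9*, which starts 226 bases away on the opposite strand, so that the pair share 275 bases of their 300-base windows. The X2 core and the Y box of *Tap1* and *Psmb9* are the same bases, counted above for both genes. Only exact matches were searched, so an element with other letters would be missed, in the heavy chain genes too. A match of letters is a description only, and the genes were not compared by their matches.

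Sums of counts ran from 10035173 to 21946486 per tumor (median 16541399), and the CAF values implied 9267819 to 22842179 reads per library. Marker sums, each the sum over a short list of genes of RPKM (reads scaled by transcript length and library size), were set beside the labels. Melanocyte markers summed to 10476 to 12754 RPKM in B16 tumors and to 6.23 to 20.7 in the others. Epithelial markers summed to 1467 to 2233 in Pan02, 671 to 706 in EO771 and 303 to 484 in LL2, but to only 4.53 to 34.3 in MC38 tumors, which were grown from a colon carcinoma line. In CAFs, the 10 fibroblast markers summed to 1619 to 10534 RPKM, with *Ptprc*, the gene of CD45, at no more than 0.95 and *Fap* between 1.89 and 11.4. CAF libraries also differed in epithelial markers, which summed to 882 and 1171 in Pan02, 494 and 501 in EO771, 203 and 211 in LL2 and 4.35 and 2.10 in MC38 CAFs, and the MC38 pair differed in fibroblast markers (7031 and 1619). No pair of libraries in a group agreed within counting noise.

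Whether the 5 models differ in the RNA of the class I genes was asked first in tumors. All 10 genes differed between the models (edgeR's quasi-likelihood test over 5 models, adjusted p from 0.000155 for *Tapbp* to 0.0136 for *B2m*), as did 91.1% of all genes tested. MC38 tumors had the highest mean of 9 genes, and B16 that of *B2m*. The lowest mean was in EO771 for 7 genes and in LL2 for 3, *Tap1*, *Tap2* and *Psmb8*. The ratio of the highest to the lowest model mean ran from 2.11 for *Erap1* to 6.72 for *H2-K1*. Tumor levels are given as CPM, counts scaled to library size by the trimmed mean of M values (TMM), for tumors 1, 2 and 3 of a model in turn. Each difference is a log2 fold change between one model and the average of the remaining 4, with its standard error, and a gene was called at an adjusted p under 0.05. In fragments of whole tumors, fewer cells of a type and less RNA per cell cannot be told apart.

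The heavy chain *H2-K1* was highest in MC38 and lowest in EO771. It stood at 3376, 4180.3 and 3609.7 CPM in MC38 tumors, 1691, 3446 and 2332 in Pan02 and 1431, 2299 and 1205 in B16. In LL2 tumors it was at 361, 724 and 1489, and in EO771 at 537, 599 and 527. Only the second Pan02 tumor came within the range of MC38, and the third LL2 tumor exceeded 2 of the 3 B16 tumors. *H2-K1* was higher in MC38, by 1.66 ± 0.29 (adjusted p = 0.000323), and in Pan02, by 0.93 ± 0.30 (adjusted p = 0.0157). It was lower in EO771 (-1.78 ± 0.36, adjusted p = 0.001) and in LL2 (-0.99 ± 0.34, adjusted p = 0.0318). The other classical heavy chain, *H2-D1*, varied less. Its values were 3539, 4412 and 3801 CPM in MC38, 1952, 3697 and 3280.2 in Pan02, 1880.3, 3022 and 1648 in B16, 1021, 1740.1 and 3222 in LL2 and 1521, 1464 and 1313 in EO771. It was higher in MC38 (0.92 ± 0.26, adjusted p = 0.00981) and lower in EO771 (-0.90 ± 0.30, adjusted p = 0.0205), and the ranges of all neighbouring models overlapped. Without MC38 tumor 2, the MC38 difference of *H2-D1* was 0.82 (adjusted p = 0.0525).

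The light chain varied less between models than either heavy chain, with a ratio of 2.17 between its highest and lowest model means. *B2m* was at 1917, 2607 and 1511 CPM in B16, 1697, 2014 and 1854 in MC38 and 1157, 1853 and 1595 in Pan02. It was at 564, 1019 and 1629 in LL2 and 984, 954 and 849 in EO771 tumors. The 3 MC38 tumors lay inside the range of B16. *B2m* was higher in B16 (0.63 ± 0.23, adjusted p = 0.0279) and lower in EO771 (-0.76 ± 0.25, adjusted p = 0.022), while the MC38 difference was 0.49 ± 0.23 (adjusted p = 0.0964). Total-count scaling put that difference at 0.63 (adjusted p = 0.0308). Per transcript length, *B2m* and the heavy chains ranked high in every tumor. Their lowest levels, 223 RPKM for *H2-K1*, 592 for *H2-D1* and 662 for *B2m*, were at or above percentile 98.6 of the genes tested in that tumor.

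Of the transporter genes, *Tap1* showed the largest MC38 difference of all 10. It was at 626, 734 and 649 CPM in MC38, 299, 416 and 290.5 in B16 and 149, 299 and 149 in Pan02 tumors. EO771 tumors had 120.3, 123 and 106 CPM and LL2 tumors 41.1, 75.3 and 208. Every MC38 tumor lay above every other tumor, and the LL2 tumors alone spanned the whole of EO771. *Tap1* was higher in MC38 by 1.98 ± 0.31 (adjusted p = 0.000138), and lower in EO771 (-1.18 ± 0.38, adjusted p = 0.0173) and LL2 (-1.31 ± 0.38, adjusted p = 0.0135). *Tap2*, its partner in the transporter, had another order of model means, though no step between neighbouring models passed the test for either gene. It was at 377, 439 and 403 CPM in MC38 and 252, 231 and 243 in EO771, against 162, 276 and 168 in B16, 119.8, 258 and 162 in Pan02 and 91.6, 87.6 and 217 in LL2. It was the only one of the 10 genes with a positive EO771 difference, 0.20 ± 0.26 (adjusted p = 0.535), which did not pass the test. *Tap2* was higher in MC38 (1.14 ± 0.25, adjusted p = 0.00179) and lower in LL2 (-0.89 ± 0.29, adjusted p = 0.0228).

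*Tapbp*, the loading factor tapasin, was at 1502, 1979.5 and 1616 CPM in MC38 tumors, 727, 1258 and 711 in Pan02 and 399, 364 and 970.5 in LL2. B16 tumors had 388, 653 and 431 CPM and EO771 tumors 336, 351 and 321. MC38 lay above all other tumors and EO771 below all of them, although the EO771 range reached 351 CPM where the lowest LL2 tumor was at 364. *Tapbp* was higher in MC38 (1.65 ± 0.24, adjusted p = 8.26e-05) and lower in EO771 (-1.27 ± 0.29, adjusted p = 0.00251). The step from MC38 to Pan02, 0.92 on the log2 scale (adjusted p = 0.0327), passed the test. Among the 40 such steps between neighbours in the order of model means of the 10 genes, the only other to pass was that of *Psmb9* from B16 to Pan02 (1.12, adjusted p = 0.0457). *Erap1* had the narrowest range. It was at 179, 176 and 159 CPM in MC38, 122, 143 and 102 in B16, 80.8, 127 and 117 in Pan02, 81.7, 67.9 and 119 in LL2 and 73.1, 86.2 and 83.7 in EO771. MC38 again lay above all others, by 0.79 ± 0.15 (adjusted p = 0.000756), and EO771 was lower (-0.56 ± 0.17, adjusted p = 0.0126).

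The immunoproteasome subunits had their highest means in MC38 tumors and the next highest in B16. *Psmb8* was at 411, 464 and 429 CPM in MC38, 238, 314 and 209 in B16 and 102, 213 and 159 in Pan02. It was at 119, 104 and 98.8 in EO771 and 30.5, 73.2 and 153 in LL2. The MC38 tumors lay above all others. The differences were 1.65 ± 0.29 (adjusted p = 0.000383) in MC38, -1.28 ± 0.36 (adjusted p = 0.0105) in LL2 and -0.87 ± 0.35 (adjusted p = 0.0464) in EO771, while B16, at 0.68 ± 0.31 (adjusted p = 0.0696), did not pass. The EO771 call was lost in 12 of the 15 fits that left out 1 tumor. *Psmb9* was at 194, 249 and 211 CPM in MC38, 157, 195 and 136 in B16 and 49.3, 111 and 64.2 in Pan02. LL2 had 11.5, 29.7 and 69.9 and EO771 39.1, 39.2 and 29.6. B16 tumor 2 reached the lowest MC38 tumor, so that these models overlapped. *Psmb9* was higher in MC38 (1.78 ± 0.32, adjusted p = 0.000454) and B16 (1.25 ± 0.33, adjusted p = 0.00483) and lower in EO771 (-1.47 ± 0.40, adjusted p = 0.00749) and LL2 (-1.42 ± 0.40, adjusted p = 0.0115).

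*Nlrc5*, the transactivator, was the least abundant of the 10 per transcript length, at 1.96 to 21.6 RPKM over the tumors. In CPM it stood at 149, 140.0 and 142 in MC38, 126, 130.1 and 93.3 in B16 and 61.2, 93.6 and 45.3 in Pan02. LL2 tumors had 13.5, 27.2 and 73.3 and EO771 tumors 34.3, 42.1 and 34.8. MC38 lay above all other tumors, but by little over B16. *Nlrc5* was higher in MC38 (1.32 ± 0.31, adjusted p = 0.00307) and B16 (0.94 ± 0.32, adjusted p = 0.0196) and lower in EO771 (-1.12 ± 0.37, adjusted p = 0.0206) and LL2 (-1.08 ± 0.37, adjusted p = 0.031).

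**Figure D1:**
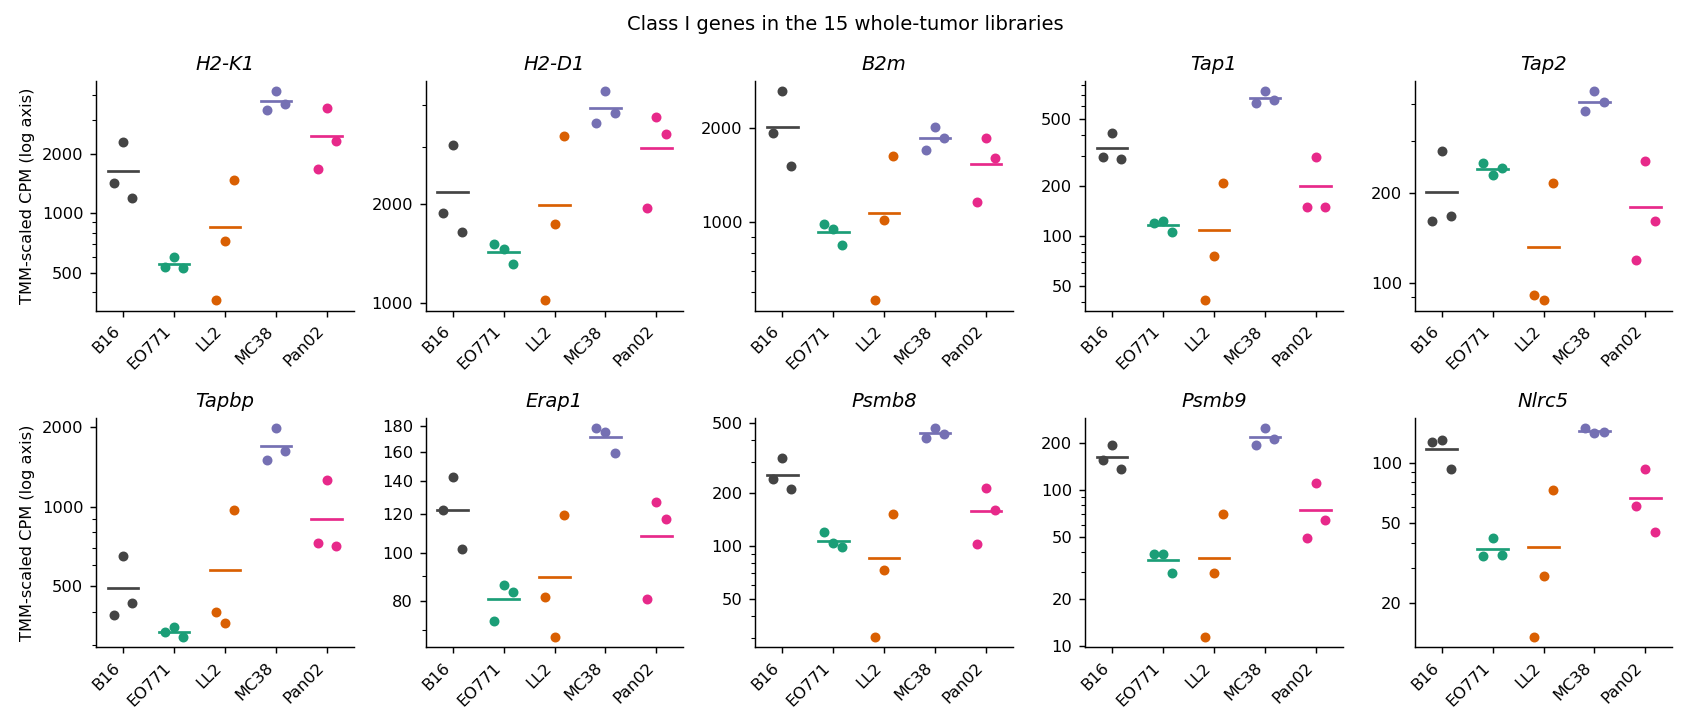
TMM-scaled CPM on a log axis of the 10 class I genes in the 15 tumors, with 1 point per tumor and the model mean as a bar. For *Tap1*, *Tap2*, *Tapbp*, *Erap1*, *Psmb8* and *Nlrc5* the 3 MC38 tumors sit above every other tumor, while the LL2 tumors spread widely and the EO771 tumors lie close together.

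In the test of each model against the other 4, 9 of the 10 genes were higher in MC38 tumors, where 27.0% of all genes were. Their median difference was 1.48, against 0.00 over all genes. The 3 MC38 tumors lay above the 12 others for 6 genes, *Tap1*, *Tap2*, *Tapbp*, *Erap1*, *Psmb8* and *Nlrc5*, as they did for 7.68% of all genes. The count of 9 stayed between 8 and 10 whichever tumor was left out. Scaling by total counts instead of TMM moved the median of all genes by 0.14 in MC38 and by -0.11 in Pan02, and moved the share of MC38 calls that were higher from 52.5% to 65.5%, with all 10 class I genes then called.

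EO771 was the opposite case. There, 9 of 10 genes were lower, all but *Tap2*, against 27.0% of all genes, with a median difference of -1.01. Its tumors lay below all 12 others for *Tapbp* alone (7.02% of all genes). For the 8 other lower genes at least 1 LL2 tumor was below the lowest EO771 tumor. The count of 9 fell to 3, 5 and 4 when EO771 tumors 1, 2 and 3 were left out in turn, and *H2-D1*, *B2m*, *Tap1* and *Psmb8* lost their calls in each of these fits. In LL2, 6 genes were lower, *Psmb9*, *Tap1*, *Psmb8*, *Nlrc5*, *H2-K1* and *Tap2*, against 18.9% of all genes. That count moved with each tumor of the model. It was 10 without LL2 tumor 3, the highest of its model, 3 without tumor 1 and 0 without tumor 2 by edgeR, where 3 had an unadjusted p under 0.05.

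In B16 tumors, *Psmb9*, *Nlrc5* and *B2m* were higher, 3 of 10 genes against 31.9% of all genes. Without B16 tumor 1 *Psmb9* alone stayed higher. Without B16 tumor 2 it was likewise the only one higher, *B2m* being at 0.40 (adjusted p = 0.215) and *Nlrc5* at 0.86 (adjusted p = 0.0791), and *Tapbp* was lower (-0.85, adjusted p = 0.0437). The number higher was 5 without LL2 tumor 1, LL2 tumor 3 or Pan02 tumor 2. *Tapbp* was at -0.59 ± 0.28 (adjusted p = 0.0805) in B16. In Pan02, *H2-K1* alone was higher, 1 of 10 against 32.5%, and the count was 3 without LL2 tumor 3 and 0 without Pan02 tumor 2, where 1 had an unadjusted p under 0.05 in edgeR. Between pairs of models, 46 of 100 tests passed, against 54.6% over all genes. MC38 differed from EO771 and from LL2 in 9 genes each, from Pan02 in 7 and from B16 in 3, against 49.4%, 43.8%, 58.9% and 60.0% of all genes. Between EO771 and LL2 edgeR called none of the 10, against 44.4% of all genes, with 2 at an unadjusted p under 0.05 and 2 called by DESeq2. Without LL2 tumor 3, 75 of the 100 tests passed.

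**Figure D2:**
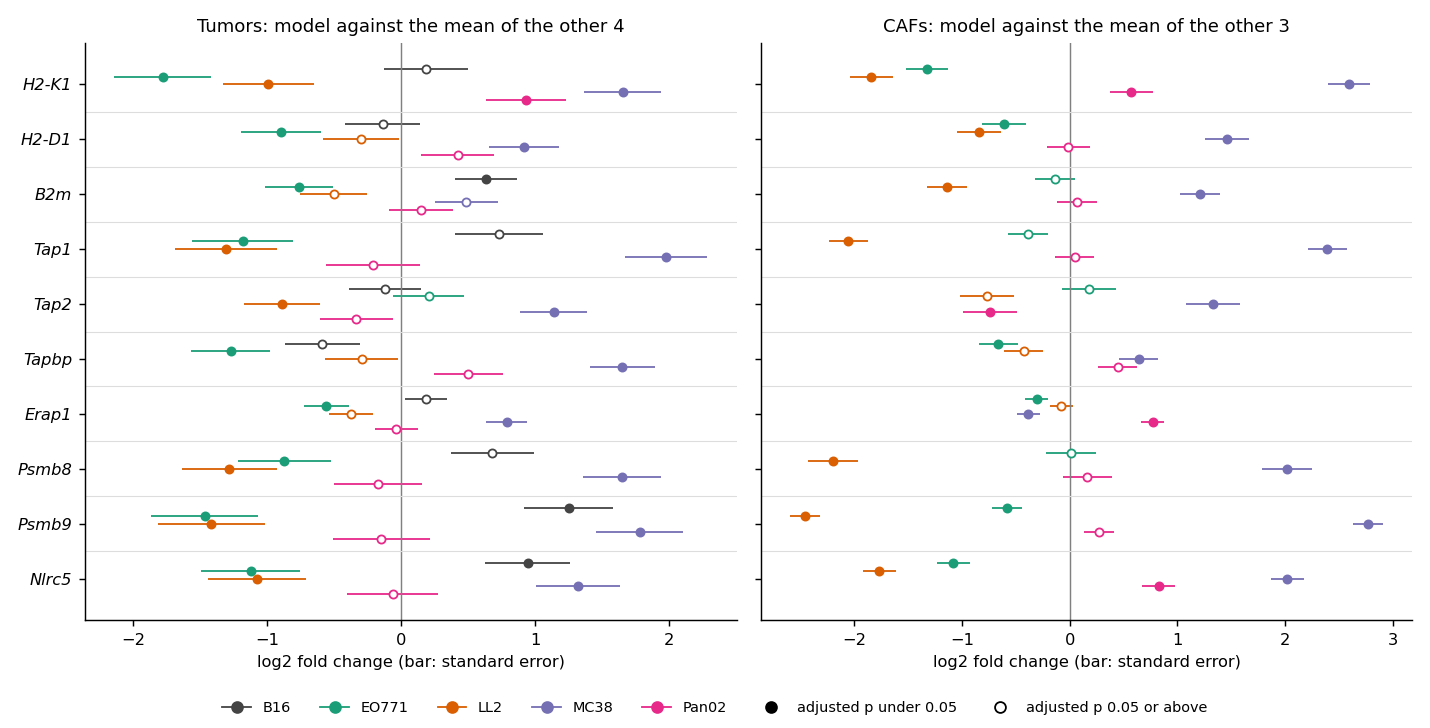
Log2 fold change with its standard error of each class I gene, comparing a model with the average of the remaining ones, for tumors on the left and CAFs on the right, with filled points at an adjusted p under 0.05. MC38 lies to the right of 0 for all 10 genes in tumors and for 9 of 10 in CAFs, where *Erap1* is on the left, and EO771 tumors and LL2 CAFs lie furthest to the left for most genes.

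In 3 models the 10 genes were all highest in the same tumor. In LL2, all 10 were highest in tumor 3, which was the highest tumor for 33.0% of all genes. There the highest tumor exceeded the lowest by 6.09 times for *Psmb9*, 5.42 times for *Nlrc5*, 5.07 times for *Tap1*, 5.00 times for *Psmb8* and 4.12 times for *H2-K1*. All 10 were also highest in tumor 2 of B16 (40.98% of all genes) and in tumor 2 of Pan02 (26.73%). EO771 tumors stayed close, with *Tap1* within 1.16 times and *H2-K1* within 1.14 times. The mean of log2(CPM + 1) over the 10 genes was 6.71, 7.36 and 8.48 in LL2 tumors, 8.01, 8.91 and 8.33 in Pan02, 8.56, 9.04 and 8.39 in B16, 7.65, 7.68 and 7.53 in EO771 and 9.37, 9.58 and 9.42 in MC38.

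Markers of T and NK cells are set beside these values. The sum over 10 of them, *Cd3e*, *Cd3d*, *Cd4*, *Cd8a*, *Cd8b1*, *Nkg7*, *Gzmb*, *Prf1*, *Ncr1* and *Klrd1*, was 10.4, 24.3 and 86.9 RPKM in LL2 tumors, 16.3, 90.9 and 40.9 in Pan02 and 34.7, 87.2 and 42.0 in B16. It was 15.1, 23.9 and 25.9 in EO771 and 102, 104 and 107 in MC38. The tumor with the highest class I genes was also the one with the highest T and NK cell sum in LL2, Pan02 and B16, and MC38 tumors were the highest in both. In EO771 the tumor with the highest T and NK cell sum, tumor 3, had the lowest class I mean. Of the 10 markers, 4 were higher in MC38, and 2 were lower in EO771, against 27.0% of all genes in each case, while none passed in LL2 by edgeR or DESeq2, nor at an unadjusted p under 0.05. *Ifng*, the gene of interferon gamma, was at 2.98, 2.93 and 3.83 CPM in MC38 and 0.265, 0.0849 and 0.436 in EO771. Leukocyte markers as a whole, by contrast, summed to 725, 617 and 939 RPKM in MC38 and 647, 696 and 626 in EO771, and edgeR called none of the 10 in either model, with 1 in MC38 at an unadjusted p under 0.05, called by DESeq2, and 0 in EO771 by either measure. In B16, which had the lowest leukocyte sums (213, 382 and 352), all 10 leukocyte markers were lower. The leukocyte sum was also highest in the tumor with the highest class I genes in B16 and in LL2 (509, 807 and 1164), but not in Pan02 (500, 1030 and 1432). The part of T and NK cells, or of other leukocytes, in the class I differences was not tested.

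**Figure D3:**
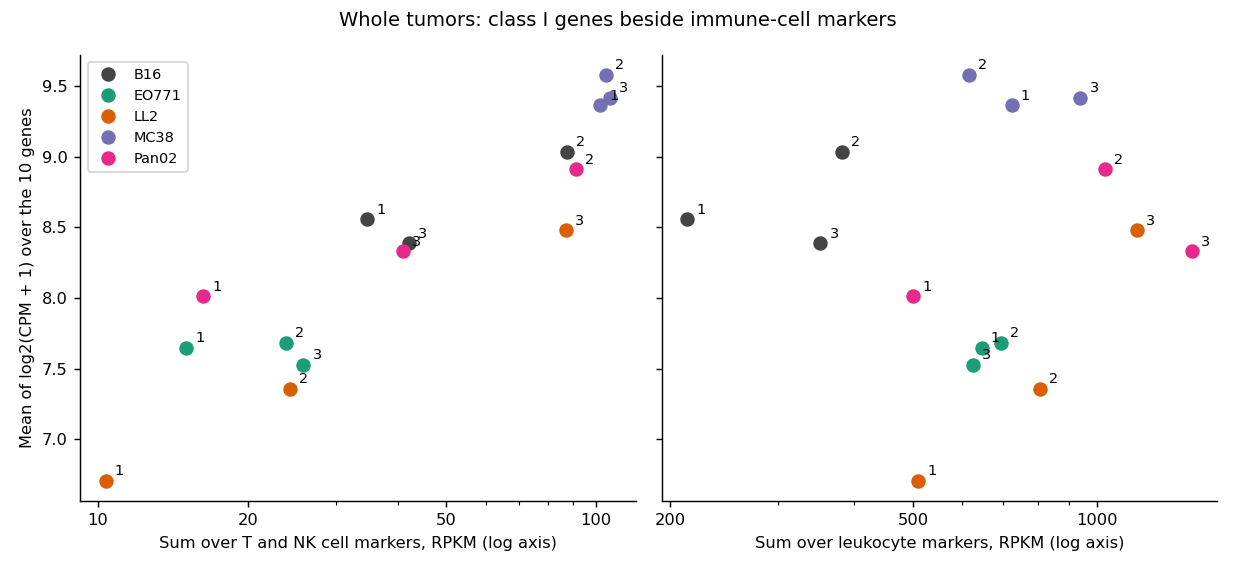
Mean of log2(CPM + 1) over the 10 class I genes in each tumor against the summed RPKM of leukocyte markers and of T and NK cell markers (log axes), with tumors numbered within their model. On the T and NK cell panel the MC38 tumors sit at the upper right and LL2 tumor 1 at the lower left, and the highest tumor of LL2, Pan02 and B16 is the highest on both axes; B16 lies at the left of the leukocyte panel but not at the bottom.

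Ratios between genes of 1 library do not depend on library scaling. The immunoproteasome subunits *Psmb8* and *Psmb9* replace *Psmb5* and *Psmb6* of the constitutive proteasome, so their log2 ratios, per transcript length, were taken in each library. The *Psmb8*/*Psmb5* log2 ratio was 1.71, 1.46 and 1.52 in MC38 tumors, 0.78, 1.24 and 0.38 in B16, -0.03, 1.16 and 0.24 in Pan02, -0.27, -0.34 and -0.45 in EO771 and -1.98, -0.87 and 0.36 in LL2. MC38 tumors exceeded all others. Their mean minus that of the other 12 was 1.55 (2-sided exact permutation test, p = 0.0132, adjusted p = 0.0714). The *Psmb9*/*Psmb6* log2 ratio was 0.57, 0.47 and 0.49 in MC38, 0.02, 0.31 and -0.41 in B16, -1.24, 0.02 and -1.08 in Pan02, -2.11, -2.07 and -2.33 in EO771 and -3.57, -2.52 and -1.07 in LL2. It again was highest in MC38, by 1.85 (2-sided exact permutation test, p = 0.0154, adjusted p = 0.0714). Neither proteasome ratio passed after adjustment over the 15 tests, and the smallest p that 3 of 15 tumors allow is 0.0022. Without LL2 tumor 1 both passed in MC38, *Psmb8*/*Psmb5* at 1.37 (adjusted p = 0.0206) and *Psmb9*/*Psmb6* at 1.65 (adjusted p = 0.0412), by the same exact permutation test. *Psmb9*/*Psmb6* in EO771 then passed as well, at -1.77 (adjusted p = 0.0412) in that permutation test.

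The ratio of light to heavy chain also set the MC38 tumors apart, with a smaller p than the proteasome ratios but also a smaller difference. The gap was narrow, from -0.03 in the third MC38 tumor to 0.03 in the second Pan02 tumor. *B2m*/*H2-K1* stood at -0.06, -0.12 and -0.03 (log2) in MC38, at 0.38, 0.03 and 0.38 in Pan02 and at 1.35, 1.11 and 1.26 in B16. In LL2 it was 1.57, 1.42 and 1.06 and in EO771 1.80, 1.60 and 1.62. MC38 tumors were thus the only ones with less *B2m* than *H2-K1* per transcript length, and EO771 tumors had the largest excess of *B2m*. The MC38 difference was -1.21 (2-sided exact permutation test, p = 0.0022, adjusted p = 0.033), the only one of the 15 to pass. It ran from -1.23 to -1.18 when 1 MC38 tumor was left out, where the call was lost (adjusted p = 0.12) and the 2 tumors that remain allow fewer permutations.

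**Figure D4:**
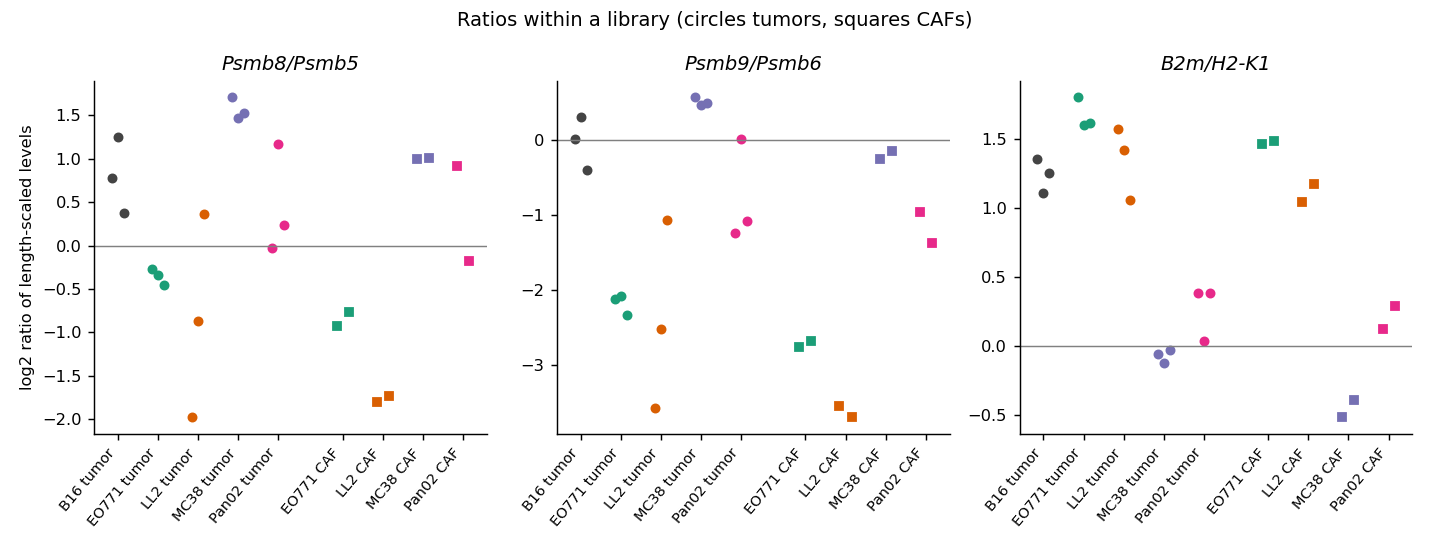
Log2 ratios of length-scaled levels within a library for *Psmb8*/*Psmb5*, *Psmb9*/*Psmb6* and *B2m*/*H2-K1*, with 1 circle per tumor and 1 square per CAF library. MC38 is highest in both proteasome ratios and lowest in *B2m*/*H2-K1*, in tumors and in CAFs, and LL2 tumors span more than 2 log2 units in the proteasome ratios.

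In CAFs, the same genes were compared between 4 models, as log2(RPKM + 1) with limma, where a fold change understates that of low genes. All 10 differed (adjusted p from 1.42e-05 for *Psmb9* to 0.0107 for *Tapbp*), as did 80.4% of all genes tested. MC38 CAFs had the highest mean of 9 genes and Pan02 CAFs that of *Erap1*. LL2 CAFs had the lowest mean of 8 genes. The ratio of the highest to the lowest model mean was 17.0 for *Psmb9*, 11.1 for *Nlrc5*, 10.9 for *Tap1* and 10.1 for *H2-K1*, and only 1.91 for *Erap1*. There were no CAF libraries of B16 tumors. CAF values are given for libraries 1 and 2 of a model, numbers that name the columns only.

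The heavy chains set MC38 CAFs apart. *H2-K1* was at 2329 and 1868 RPKM in MC38, 884 and 599 in Pan02, 253 and 289.9 in EO771 and 212 and 202 in LL2 CAFs. The order held without overlap, but EO771 and LL2 CAFs did not differ in the test (0.39, adjusted p = 0.249). *H2-K1* was higher in MC38, by 2.59 ± 0.20 (adjusted p = 6.05e-05), and in Pan02, by 0.57 ± 0.20 (adjusted p = 0.0428), and lower in LL2 (-1.84 ± 0.20, adjusted p = 0.000608) and EO771 (-1.33 ± 0.20, adjusted p = 0.00143). *H2-D1* was at 1999 and 1466 RPKM in MC38, 925 and 685 in Pan02, 553 and 614 in EO771 and 521 and 512 in LL2 CAFs. It was higher in MC38 only (1.46 ± 0.20, adjusted p = 0.000721), and lower in LL2 (-0.84 ± 0.20, adjusted p = 0.0182) and EO771 (-0.61 ± 0.20, adjusted p = 0.0388). *B2m* was at 1622 and 1421 RPKM in MC38, 959.9 and 732 in Pan02, 698 and 812 in EO771 and 437 and 456 in LL2 CAFs. Pan02 and EO771 CAFs overlapped, and *B2m* was higher in MC38 (1.21 ± 0.18, adjusted p = 0.00109) and lower in LL2 (-1.14 ± 0.18, adjusted p = 0.0035). By RPKM, no gene exceeded *H2-K1* in MC38 library 2 and 1 gene did in library 1, against 21 and 43 genes in Pan02 and 205 to 248 genes in EO771 and LL2 CAFs.

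The transporter and loading genes behaved differently from one another. *Tap1* was at 144 and 125 RPKM in MC38, 50.4 and 29.9 in Pan02, 30.2 and 31.4 in EO771 and 12.5 and 12.2 in LL2 CAFs. Both MC38 libraries stood far above the rest and both LL2 libraries below it, with differences of 2.40 ± 0.18 (adjusted p = 6.07e-05) and -2.06 ± 0.18 (adjusted p = 0.000278). *Tap2* was at 150.5 and 113 RPKM in MC38, 62.8 and 30.6 in Pan02, 70.0 and 72.7 in EO771 and 41.1 and 45.3 in LL2 CAFs. It was higher in MC38 (1.33 ± 0.25, adjusted p = 0.00289) and lower in Pan02 (-0.74 ± 0.25, adjusted p = 0.0395), whose 2 libraries differed by 2.05 times, and LL2 fell just short of the threshold (-0.77 ± 0.25, adjusted p = 0.0501). *Tapbp* was at 201 and 154 RPKM in MC38, 197 and 128 in Pan02, 87.7 and 90.1 in EO771 and 100.4 and 101 in LL2 CAFs. Pan02 CAFs overlapped MC38, and EO771 lay below all others (-0.66 ± 0.18, adjusted p = 0.0188). The MC38 difference of *Tapbp* was 0.64 ± 0.18 (adjusted p = 0.0176), and without MC38 library 1 it was 0.45 (adjusted p = 0.0912).

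*Erap1* was the exception in CAFs. It was at 8.97 and 10.5 RPKM in MC38, 18.9 and 18.1 in Pan02, 9.60 and 10.7 in EO771 and 11.1 and 11.97 in LL2 CAFs. Pan02 CAFs lay above all others, by 0.77 ± 0.11 (adjusted p = 0.000864), and MC38 CAFs, the highest for the 9 other genes, had the lowest mean. *Erap1* was lower in MC38, with a difference of -0.39 ± 0.11 (adjusted p = 0.016), which became -0.29 (adjusted p = 0.0735) without MC38 library 1. In MC38 tumors, it was higher by 0.79 ± 0.15 (adjusted p = 0.000756). Tumor and CAF tables are in different units and were not compared by a test.

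*Psmb9* and *Nlrc5* had the widest ranges between CAF models. *Psmb9* was at 158 and 123 RPKM in MC38, 40.5 and 34.4 in Pan02, 21.3 and 26.1 in EO771 and 8.05 and 8.53 in LL2 CAFs, a ratio of 17.0 between the model means of MC38 and LL2. All 3 steps between neighbouring models passed the test, which no other of the 10 genes did. Its differences were 2.77 ± 0.14 (adjusted p = 1.59e-05) in MC38, -2.46 ± 0.14 (adjusted p = 4.95e-05) in LL2 and -0.58 ± 0.14 (adjusted p = 0.0107) in EO771. *Psmb8* was at 236 and 169 RPKM in MC38, 100.1 and 57.1 in Pan02, 63.9 and 76.2 in EO771 and 19.8 and 23.2 in LL2 CAFs. It was higher in MC38 (2.02 ± 0.23, adjusted p = 0.000283) and lower in LL2 (-2.20 ± 0.23, adjusted p = 0.00052), while Pan02 and EO771 CAFs overlapped. *Nlrc5* was at 15.2 and 21.2 RPKM in MC38, 10.2 and 8.25 in Pan02, 2.97 and 2.58 in EO771 and 1.55 and 1.74 in LL2 CAFs. It was higher in MC38 (2.02 ± 0.15, adjusted p = 5.91e-05) and Pan02 (0.83 ± 0.15, adjusted p = 0.00331) and lower in LL2 (-1.77 ± 0.15, adjusted p = 0.000246) and EO771 (-1.08 ± 0.15, adjusted p = 0.00112).

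**Figure D5:**
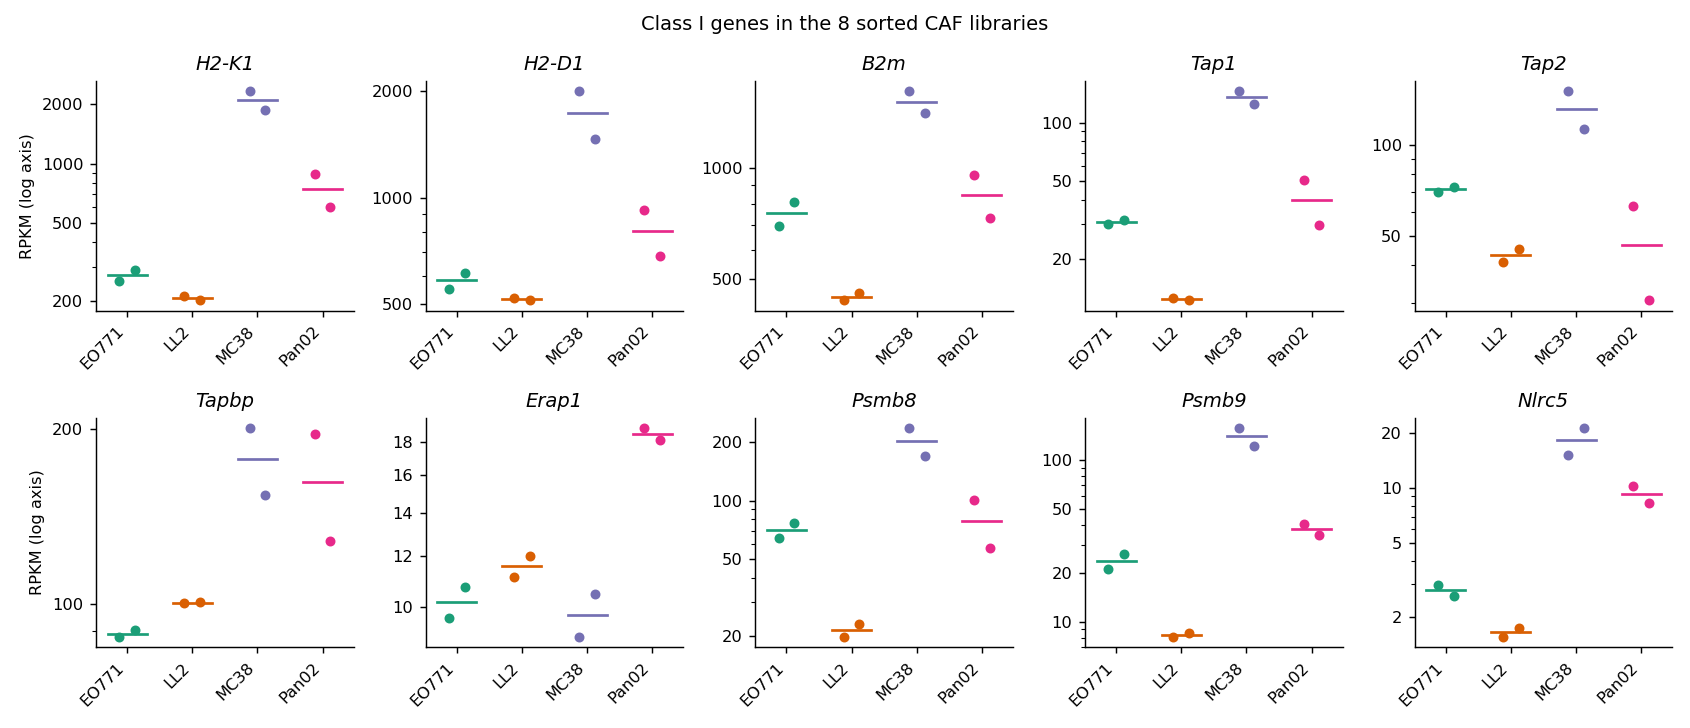
RPKM on a log axis of the 10 class I genes in the 8 CAF libraries, with 1 point per library and the model mean as a bar. Both MC38 libraries sit above all others for 8 genes, *Tapbp* and *Erap1* being the exceptions, and both LL2 libraries sit below all others for 7.

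Counted over the 10 genes, 9 were higher in MC38 CAFs (28.6% of all genes) and *Erap1* was lower (31.3%), with a median difference of 1.74. For 8 genes both MC38 libraries lay above the other 6 (20.3% of all genes). In LL2 CAFs 7 were lower (18.3% of all genes), with a median of -1.46, and both libraries lay below the rest for the same number (7.79%). In EO771 CAFs 6 were lower (27.9%), a count that was 2 without EO771 library 1 and 3 without library 2. Pan02 CAFs had 3 higher (27.1%), *Nlrc5*, *Erap1* and *H2-K1*, and *Tap2* lower (26.5%), and 2 of these 4 calls were left without EO771 library 1, EO771 library 2, LL2 library 1 or LL2 library 2. The calls of *H2-K1* and *Tap2* in Pan02 CAFs were each lost in 5 of the 8 fits that left out 1 library, those of *Erap1* and *H2-D1* in EO771 CAFs in 6 and 5, and that of *H2-D1* in LL2 CAFs in 4. *B2m* in LL2 CAFs was at -1.11 (adjusted p = 0.0559) without LL2 library 1 and at -1.17 (adjusted p = 0.0522) without library 2. Pan02 library 1 was the higher of its pair for all 10 genes, against 40.87% of all genes. Between pairs of models 43 of 60 tests passed (48.1% over all genes), with 9 genes between MC38 and each other model, 7 between LL2 and Pan02, 5 between EO771 and Pan02 and 4 between EO771 and LL2. These stand against 56.3%, 48.7% and 58.7% of all genes for MC38 against EO771, LL2 and Pan02, and 35.5%, 53.2% and 36.2% for the other 3 pairs.

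Markers of T and NK cells were low in the CAF libraries, while those of other immune cells were higher in EO771 CAFs than in the others. The 10 T and NK cell markers summed to 0.154 to 2.24 RPKM over all 8, and none reached the filter, so that *Cd3e*, *Cd8a* and the others were not tested there. The sums in MC38 CAFs (0.860 and 1.18) lay below those in EO771 CAFs (2.14 and 2.24). *Ifng* was listed at 0 or at no more than 0.24 RPKM. Macrophage markers summed to 149.8 and 193 in EO771 CAFs and to 6.74 to 23.9 in the others. Leukocyte markers summed to 67.7 and 80.6 in EO771 CAFs and to 8.17 to 40.9 in the others. Epithelial markers were lowest in MC38 CAFs, where 6 of 6 were lower, and highest in Pan02 CAFs, where 5 of 6 were higher. Whole MC38 tumors were also low in them (4.53 to 34.3 RPKM), so these markers say little about MC38 cancer cells. Fibroblast markers summed to 4085 and 2485 in Pan02 CAFs, below the 8793 to 9655 of Pan02 tumors. MC38 CAFs, at 7031 and 1619, lay above and within the 630 to 2584 of MC38 tumors. EO771 and LL2 CAFs lay above their tumors. Tumor and CAF values were scaled differently. The part that cells of other types had in the class I values of CAFs was not tested.

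Within CAF libraries, the *Psmb8*/*Psmb5* log2 ratio was 0.99 and 1.01 in MC38, 0.91 and -0.18 in Pan02, -0.93 and -0.76 in EO771 and -1.80 and -1.73 in LL2. *Psmb9*/*Psmb6* was at -0.26 and -0.15 in MC38, -0.95 and -1.37 in Pan02, -2.76 and -2.67 in EO771 and -3.54 and -3.70 in LL2. *B2m*/*H2-K1* was at -0.52 and -0.39 in MC38, 0.12 and 0.29 in Pan02, 1.47 and 1.49 in EO771 and 1.04 and 1.17 in LL2. As in tumors, MC38 was at the extreme of all 3 ratios. With 2 of 8 libraries the smallest p is 0.0357 (2-sided exact permutation test), and none of the 12 tests could pass after adjustment, the smallest adjusted p being 0.143.

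The remaining genes of the pathway were described from lists. The median difference over all genes tested lay between -0.04 and 0.05 in the tumor contrasts and between -0.03 and 0.00 in those of CAFs. Beside the shares of all genes called that are given above, 24.4% were lower in MC38 tumors, 31.6% in B16 and 28.1% in Pan02, and 23.3% were higher in LL2 and 27.2% in EO771 tumors. In CAFs 14.7% were higher in LL2 and 24.5% in EO771. The partners of the immunoproteasome, *Psmb10*, its other exchanged subunit, and the activator genes *Psme1* and *Psme2*, were all higher in MC38 tumors and all lower in EO771. *Psmb10* was at 533, 622 and 519 CPM in MC38 and 49.04, 46.4 and 40.2 in EO771 tumors, with differences of 2.27 ± 0.22 (adjusted p = 2.27e-06) and -2.26 ± 0.29 (adjusted p = 2.43e-05). In CAFs all 3 were likewise higher in MC38 and lower in EO771, with *Psmb10* at 2.505 ± 0.18 (adjusted p = 4.66e-05) and -1.65 ± 0.18 (adjusted p = 0.000355). In LL2, 2 of 3 were lower in tumors and in CAFs. A list of 14 other core proteasome genes held *Psmb5*, *Psmb6* and *Psmb7* of the constitutive form, and otherwise subunits that both forms share. These 14 genes moved by less and in another order. All 14 were lower in Pan02 tumors (median -0.53, with *Psmb7* at -0.94 ± 0.10, adjusted p = 2.26e-06), 8 were higher in MC38 (median 0.31) and 5 in EO771. In CAFs, 13 were higher in EO771 and 10 lower in Pan02, and in MC38 5 were higher and 3 lower. *Psmb5*, *Psmb6* and *Psmb7* were at 0.20, 0.05 and 0.13 in MC38 tumors, beside 1.65, 1.78 and 2.27 for *Psmb8*, *Psmb9* and *Psmb10*.

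Of 20 other class I heavy chain genes, most of them nonclassical, 18 were tested in tumors and 15 in CAFs. In tumors, 11 were higher and 2 lower in MC38 (median 1.22), and 2 were higher and 10 lower in EO771 (median -1.14). The largest of these were *H2-T3* in MC38 (4.41 ± 0.49, adjusted p = 7.93e-06) and *H2-Q4* in EO771 (-2.24 ± 0.39, adjusted p = 0.000317). *H2-M2*, however, was higher in EO771 (3.99 ± 0.71, adjusted p = 0.000344). These genes are close relatives, and reads between them may be split or shared. *H2-T23*, which encodes Qa-1, was highest in Pan02, at 1.81 ± 0.33 (adjusted p = 0.000336) in tumors and 1.66 ± 0.53 (adjusted p = 0.0314) in CAFs, and at -0.45 ± 0.38 (adjusted p = 0.342) in MC38 tumors. *H2-M3*, whose product presents formylated peptides, was at 1.41 ± 0.21 (adjusted p = 9.64e-05) in MC38 tumors and -0.75 ± 0.24 (adjusted p = 0.0201) in EO771. In CAFs, 6 of the 15 were higher and 1 lower in MC38, with *H2-T10* the furthest (3.06 ± 0.17, adjusted p = 2.06e-05), and 6 were lower in LL2, 5 in EO771 and 7 in Pan02. The chaperones of loading in the endoplasmic reticulum moved less. Of 6, 4 were higher in MC38 and in B16 tumors and 4 lower in LL2, with *Calr* at 0.55 ± 0.10 (adjusted p = 0.000365), *Canx* at 0.75 ± 0.09 (adjusted p = 9.86e-06) and *Pdia3* at 0.20 ± 0.08 (adjusted p = 0.0426) in MC38. Of 6 other peptidases that can cut peptides, 2 were higher in MC38 tumors and 4 in EO771, and 4 were lower in Pan02.

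Among 15 transcription factors of class I promoters, 7 were higher and 2 lower in MC38 tumors (median 0.20), and 3 were higher and 8 lower in EO771 (median -0.28). *Irf1*, an interferon-induced activator, was at 466, 389.8 and 404 CPM in MC38, 197, 229 and 226 in B16, 194, 361 and 214 in Pan02, 100.02, 101 and 184 in LL2 and 52.2, 60.4 and 52.8 in EO771 tumors. It was higher in MC38 (1.58 ± 0.18, adjusted p = 8.15e-06) and lower in EO771 (-2.09 ± 0.23, adjusted p = 4.98e-06). *Rfx5*, which binds the X box of MHC promoters, was at 0.20 ± 0.11 (adjusted p = 0.142) in MC38 tumors and 0.16 ± 0.19 (adjusted p = 0.477) in MC38 CAFs. *Nlrc5* itself had larger differences than *Rfx5* in both.

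Of 9 other genes that interferon gamma induces, 7 were higher in MC38 tumors, led by *Cxcl10* (3.82 ± 0.41, adjusted p = 6.08e-06), a T cell chemokine, and 7 were lower in EO771, led by the GTPase gene *Igtp* (-3.06 ± 0.65, adjusted p = 0.00139). The list's median was 1.37 in MC38 and -2.19 in EO771. By edgeR none of the 9 passed in LL2 tumors, with 1 at an unadjusted p under 0.05 and 1 called by DESeq2. *Cd274*, the gene of PD-L1, was at 1.23 ± 0.34 (adjusted p = 0.00829) in MC38 and -1.37 ± 0.41 (adjusted p = 0.0124) in EO771 tumors. In CAFs the list stood highest in Pan02, with 7 of 9 higher in Pan02, led by *Gbp2* (2.90 ± 0.20, adjusted p = 2.80e-05), and 4 in MC38, against 6 lower in LL2 and 6 in EO771. Pan02 CAFs were also the only ones with *Ciita*, the class II transactivator, above 0.13 RPKM, at 5.55 and 2.10 RPKM. The median difference of the 9 genes was 1.73 in Pan02 and 0.70 in MC38 CAFs, while that of the 10 class I genes was 0.22 and 1.74. Of 6 genes of interferon gamma and its signalling, 2 were higher in MC38 tumors and 4 in Pan02 tumors, and 4 were lower in EO771 and in B16.

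Among genes on none of the lists, those whose pattern was most like the mean of the 10 were found by the root mean square difference of centred log2 values. Over the 15 tumors these were *Trim21* (0.24), *Serpina3f* (0.26), *Psme2b* (0.26), *Trim12a* (0.27) and *Slco3a1* (0.28), where the median of all genes was 0.96. Over the 8 CAF libraries they were *Phf11b* (0.19), *Ube2l6* (0.20), *Llgl2* (0.20), *Mndal* (0.21) and *B230206H07Rik* (0.23), with a median of 0.94. Both sets hold different genes. Each of the 10 is itself part of their mean, which draws its distance down, unlike that of the genes outside. Of the 10, *Psmb8* came closest to their mean in tumors (0.30) and *B2m* in CAFs (0.23). *Tap2* lay furthest in tumors (0.51), and *Erap1* in CAFs (0.93), where it was about as far as the median gene.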

How the data were processed

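RNA-seq libraries of 15 whole tumors and 8 CAF populations were analysed, and 5 columns of CT26 samples were not analysed here. Per the labels, polyA RNA was made into unstranded libraries. The authors aligned reads to mm10 with STAR 2.5.0c and counted them over the exons of RefSeq transcripts with HOMER, on both strands. For tumors they deposited expected counts, in steps of 0.5 and without normalization, and for CAFs they deposited RPKM, divided by transcript length and library size. Their DESeq2 results were not used.

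The transcript of highest mean value stood for each of 24940 symbols, and 2 of 40458 transcripts that name no gene were left out (0.0000208% of counts). Tumor counts were rounded to whole numbers, filtered with filterByExpr (15722 genes), scaled by TMM and tested with the quasi-likelihood test of edgeR 4.0.16. For CAFs, limma 3.58.1 with a variance trend was run on log2(RPKM + 1) of the 13598 genes that reached 1 RPKM in 2 or more libraries. In these tables, at least 97.7% of low CAF values lay within 0.1 of a whole step of reads, which gave the reads per library, and edgeR on these recovered reads was an alternative chosen after seeing the data. The models had 1 term per cell line and no covariate, p-values were adjusted by Benjamini-Hochberg over all genes of a contrast, and a call needs an adjusted p under 0.05. Ratios within a library were compared by exact permutation tests. The scripts were tested on simulated data. Alternatives were other scalings, no filter on low values, DESeq2 1.42.0, another transcript per gene, another pseudocount (0.1), the replicate number as a block and leaving out each library in turn. Python 3.11.15 and R 4.3.3 were used.

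All 10 class I genes are named. In the other lists every gene was counted, and those named are *Psmb10*, *Psme1*, *Psme2*, *Psmb5*, *Psmb6*, *Psmb7*, *Irf1*, *Rfx5*, *Ifng*, *H2-T23*, *H2-M3*, *Calr*, *Canx*, *Pdia3*, *Cd274* and *Ciita*, together with genes of the largest rise or fall past the test in a list, and the 5 genes on no list that were most like the mean pattern. A further gene of this rule is not reported here. The genes and lists were chosen with earlier results of these data known. Depths cover counting error only.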

Additional observations from a re-analysis of the deposited data

Results flagged for a closer look

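*Erap1* had opposite directions in tumors and CAFs between the same models. As the log2 ratio of model means, with no pseudocount, its difference between LL2 and MC38 was -0.93 in tumors and 0.25 in CAFs, and between MC38 and Pan02 it was 0.66 in tumors and -0.93 in CAFs. In each of these 4 comparisons the libraries of the models did not overlap. The CAF difference between LL2 and MC38 did not pass the test in limma (0.23 on log2(RPKM + 1), adjusted p = 0.184), and the other 3 passed in their own fits. The difference between tumors and CAFs was not tested, because the tables hold different units.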

How the results depend on the processing

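The MC38 results kept their direction for every class I gene in tumors and CAFs under every alternative tried. The pooled counts held within 1.5 times of their value except where given here, and the cause was not tested. For B16 tumors 6 genes were called by DESeq2 against 3 by edgeR, and for Pan02 CAFs 2 without a filter on low values against 4. With edgeR on recovered reads, *H2-D1* in Pan02 CAFs was at 0.012, and every other class I gene kept its sign under the alternatives that left out no library.

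Leaving out 1 library at a time, the number of calls ran from 40 to 75 for pairs of tumor models, from 1 to 5 in B16, 3 to 9 in EO771, 0 to 10 in LL2 and 0 to 3 in Pan02 tumors. It ran from 2 to 6 in EO771 CAFs and from 2 to 6 in Pan02 CAFs, and from 0 to 5 for the tumor ratios, with 5 without LL2 tumor 1 and 0 without any 1 of the MC38 tumors. Directions changed for genes near 0. In B16 tumors *H2-D1* ran from -0.45 to 0.031, *H2-K1* from -0.14 to 0.37 and *Tap2* from -0.41 to 0.020, and in LL2 tumors *H2-D1* ran from -0.83 to 0.0020. In Pan02 tumors the range was -0.016 to 0.29 for *B2m*, -0.17 to 0.11 for *Erap1*, -0.39 to 0.16 for *Nlrc5*, -0.45 to 0.038 for *Psmb8*, -0.55 to 0.058 for *Psmb9* -0.63 to 0.0085 for *Tap1*, -0.19 to 0.40 for *Psmb8*/*Psmb5* and -0.15 to 0.48 for *Psmb9*/*Psmb6*. In CAFs it was -0.12 to 0.15 for *Psmb8* in EO771, and in Pan02 -0.13 to 0.26 for *B2m*, -0.23 to 0.21 for *H2-D1*, -0.23 to 0.57 for *Psmb8* and -0.32 to 0.41 for *Tap1*. Of the values of single genes and ratios recomputed with 1 library left out, 1260 kept their direction and side of the threshold, 74 lost and 29 gained a call and 28 turned.

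Same-numbered tumors share only a number. The correlation of their deviations from the model means ran from -0.17 to 0.26 over 30 pairs, with 9 over 0.1. With the replicate number as a block, 49 of 100 tests between pairs of models passed against 46, and 8 genes in EO771 against 9, *Psmb8* being lost there (-0.81, adjusted p = 0.0599). No paired analysis was possible for CAFs because their columns carry no replicate number. With 2 CAF libraries per model, a fit without 1 of them assumes that the lone library varies like the other groups.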
